A study of Mus musculus with 40 samples.

Results

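The 45S ribosomal RNA copy on chromosome 17 of the mm9 mouse genome was examined by reduced representation bisulfite sequencing (RRBS) of liver DNA from 40 male C57BL/6 mice of 9 weeks (C57BL/6J in the study's methods). RRBS cuts DNA with MspI at CCGG and reads the ends of the fragments after bisulfite has converted the unmethylated cytosines, so each read gives the methylation of the CpGs within 50 bases of a cut. The members were all CpG cytosines listed in the 7000 bp of chromosome 17 that hold this copy, 430 of 400298 in the table (0.107%). The segment was chosen by measured values, its high coverage and the small p-values of many of its CpGs for maternal diet in mice fed LF after weaning, so that comparison is described here with no test. The 4 groups of 10 mice each differed by the diet of the dam, low fat (LF) or high fat (HF), and by the diet after weaning, LF or HF. They were animals born from LF fed dams and fed LF (LF/LF), born from LF fed dams and fed HF (LF/HF), and the offspring of HF fed dams kept on LF (HF/LF) or on HF (HF/HF). All mice were of 1 inbred strain with no genetic change, liver was taken as a whole tissue, and litters were not named in the labels, so mice of a group may be siblings. By the study's methods the males of each cage were divided between the LF and HF diets at weaning, so littermates may stand on both sides of a post-weaning comparison, and the tests here treat all mice as unrelated.

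Ribosomal DNA encodes a long precursor, the 45S transcript made by RNA polymerase I, which is cut into the 18S, 5.8S and 28S RNAs of the ribosome. The genome carries many tandem copies of this unit, and in most cells some copies are transcribed while others are silent and carry CpG methylation. A genome build holds few of these copies, so reads from many repeats can align to 1 place and a methylation level there is an average over repeats and cells. In whole liver, a different mix of cell types and a different methylation within a cell type cannot be told apart.

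The members began at base 39979959 and ended at 39985744, a span of 5786 bp with a GC content of 64.97%. Reference cytosines of CpGs were found at all 430 positions, 221 on the plus and 209 on the minus strand. The span held 592 CpGs in the reference, of which 346 (58.4%) were listed on at least 1 strand and 84 on both. No other listed CpG lay within 133722 bp before or 266504 bp after the segment. The nearest CpGs on either side were covered by a median of 16 and 26 reads and were 91.2% and 89.0% methylated, against 25.6% at the first member and 24.3% at the last. The gene annotation used here (GENCODE vM1) lists 1 feature in the segment, the pseudogene AY036118 on the minus strand at chr17:39985048-39985772, which held 71 members. Where the 18S sequence and the spacers begin is not given by that annotation. The RefSeq gene table, built on a later assembly, places Rn18s-rs5, an 18S ribosomal RNA copy, on this chromosome.

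Because each read covers 50 bases, the members fell into read windows that start at MspI sites. There were 69 such windows with a summary, and 404 members lay in them. Windows of 3 kinds carried the pattern along the segment, and 4 examples are printed in the direction of the read, 5′ to 3′, in lower case with CpGs in capitals, from the mm9 reference. The first is the window with the highest coverage and a level near the median of the segment (chr17:39985368-39985417, minus strand, 18.8% methylated at 2831.5 reads). The second is the one window below 10% (chr17:39982633-39982682, minus strand, 3.26% at 826 reads). The third and the fourth are read windows at 40% or more (chr17:39981797-39981846, plus strand, 47.9% at 164.25 reads, and chr17:39983135-39983184, minus strand, 51.5% at 79.5 reads).
window 39985368 minus: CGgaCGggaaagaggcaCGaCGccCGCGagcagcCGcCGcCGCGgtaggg
window 39982633 minus: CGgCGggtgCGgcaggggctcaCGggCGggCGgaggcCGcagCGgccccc
window 39981797 plus: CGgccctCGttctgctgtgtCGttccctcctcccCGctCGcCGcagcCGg
window 39983135 minus: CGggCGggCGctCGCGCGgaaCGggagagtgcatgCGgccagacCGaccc

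All begin with CGG, what MspI leaves of its site. The GC content of the window below 10% was 88%, the highest of the 69 windows, whose median was 70% and lowest 50%. The 6 windows at 40% or more had a GC content of 68% to 78% and 5 to 9 CpGs, within the range of the 62 windows in between (50% to 86% and 2 to 12 CpGs). After conversion of every C to T, each of the 69 windows matched the build exactly at 1 place, its own, over 211 sequences searched. Copies with 1 or more differences from a window were not searched.

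High coverage is among the values that chose the segment and is given as a description. A member was covered by a median of 1451.75 reads per mouse (19 to 2831.5 over members), against 22 reads for the tested CpGs outside, and the most covered of all listed CpGs outside had 214326. More than 1000 reads covered 296 members but only 78 CpGs elsewhere, and 315 of the 400 most covered CpGs were members. At 10 reads or more in at least 36 of the 40 mice, 417 members could be compared between groups, and 399 were covered in all mice. The other 13 members, at 19 to 31 reads in 33 to 35 mice, were 18.8% to 56.1% methylated and entered no comparison.

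Methylation was intermediate over most of the segment. The median of the 417 members was 19.1% (interquartile range 16.2% to 23.4%). Of these, 367 (88.0%) lay from 10% to 40%, a range that held 6.78% of the 261900 tested CpGs outside. Most CpGs elsewhere were below 10% (53.9%) or at 90% or more (17.9%), levels that 4.08% and 0 members had. Along the segment, means over bins of 500 bp stayed between 17.3% and 29.5%, and the medians over the same bins between 15.7% and 21.5%. The bins that began at 39981500 and 39983000 had the highest means, 26.6% and 29.5%, and medians of 20.1% and 21.5%. The 70 tested members in the pseudogene had a mean of 19.3% and the 347 others 22.1%.

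**Figure D1:**
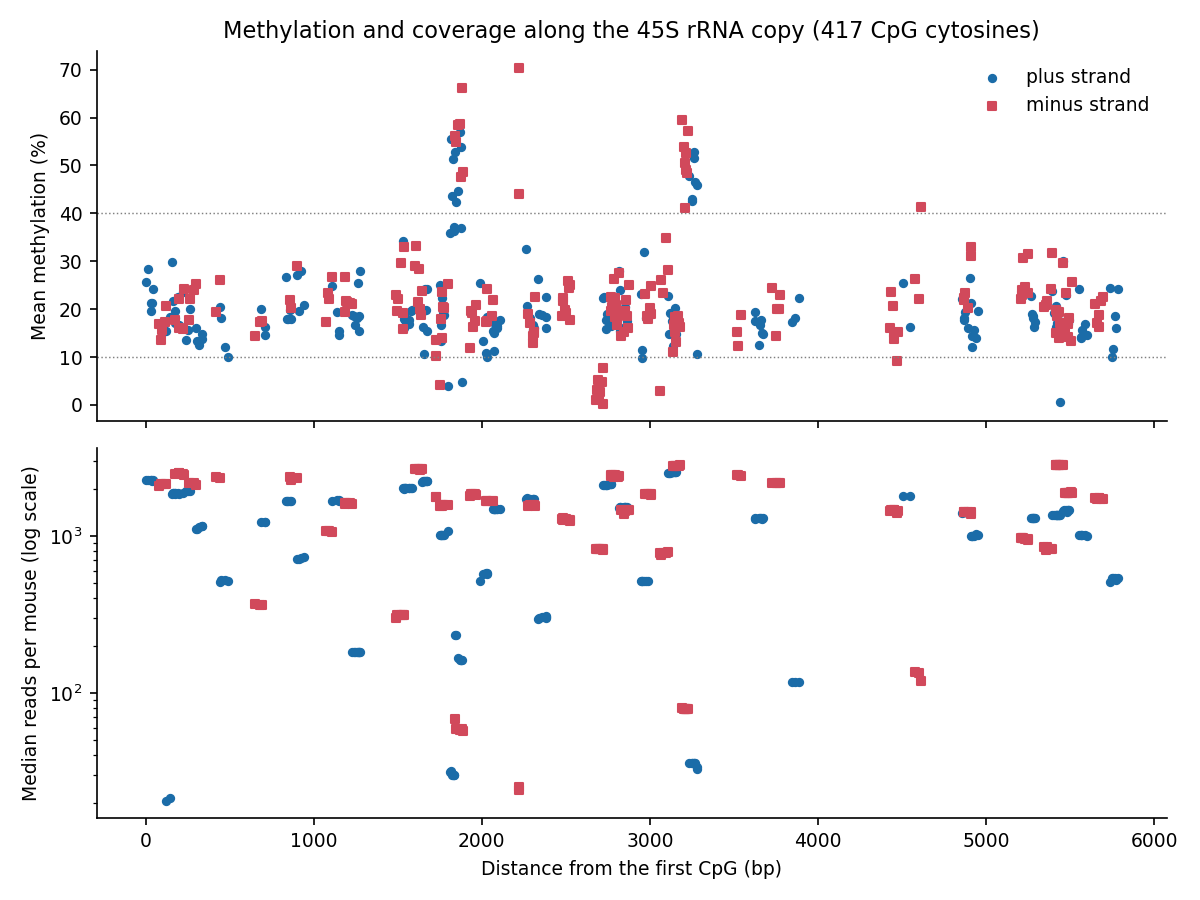
Mean methylation over 40 mice (upper panel, percent) and median reads per mouse (lower panel, log scale) for the 417 members compared, by distance in bp from the first member, with plus strand cytosines as circles and minus strand cytosines as squares and dotted lines at 10% and 40%. Most points form a band from 10% to 40%, and most of the points above 40% belong to windows of low coverage near 1850 and 3200 bp.

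Most CpGs compared on both strands gave close levels. In the 80 such CpGs, the median absolute difference was 1.72 percentage points and 60 differed by up to 5 points. Some of the rest stood further apart, such as 39981817 at 44.6% on the plus and 58.4% on the minus strand. Another 3 differed by more than 20 points, and each held a cytosine at the far end of a short MspI fragment. There were 4 such fragment-end cytosines, at 39981712 and 39983021 on the minus strand and at 39981759 and 39981844 on the plus strand, at 2.93% to 4.75%. Other members on the same reads were at 13.3% to 57.0%. Library preparation fills in MspI ends with unmethylated cytosine, so such a base need not show the methylation of the DNA it came from.

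The 62 windows from 10% to 40% had 11.9% to 29.9% methylation and a median of 1502.25 reads. The 6 windows at 40% or more lay in 3 places, from 39981759 to 39981846, at 39982133 to 39982182 and from 39983135 to 39983243, and were covered by 24.5 to 164.25 reads. The SD between mice of a group was 6.53 to 15.0 percentage points in these 6, against a median of 3.53 in the 62. Of the other windows, 3 had as few reads, at chr17:39980081-39980130 (16.9%, 21 reads) and chr17:39983807-39983856 (19.2%, 118 reads) on the plus strand and at chr17:39984524-39984573 (29.9%, 134 reads) on the minus strand. The part of coverage in the level of a window was not tested. On the minus strand, coverage changed between neighbours. CpG 39983140 had 2817.5 reads and 16.4% methylation, and CpG 39983149 had 80 reads and 59.4%. The 8 minus strand members from 39983096 to 39983140 were covered by 2775.5 to 2817.5 reads, and 7 of them had no MspI site of the reference within reach of a read.

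The window at chr17:39982633-39982682 stood at the other end. Its 8 members, all on the minus strand, were 0.256% to 7.73% methylated. The window ranged from 2.78% to 3.83% in LF/LF mice, 2.20% to 4.05% in LF/HF, 2.70% to 3.77% in HF/LF and 2.73% to 3.63% in HF/HF, with medians of 3.17%, 3.48%, 3.22% and 3.33%. The groups overlapped, and the SD between mice of a group was 0.405 percentage points, the smallest of all 69 windows. At 2 CpGs of this window the plus strand was also listed. At the MspI site the minus strand cytosine, 39982682, was at 7.73% with 823.5 reads, and the plus strand cytosine, 39982681, was at 22.4% with 2114.5 reads. At the far end the minus strand cytosine, 39982640, was at 1.08% with 826 reads, and the plus strand cytosine, 39982639, was at 18.8% with 19 reads in 35 mice. The window that begins at the same MspI site and reads away from it, on the plus strand, was 19.1% methylated.

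By the rule for naming CpGs, the highest levels were at 39982182 (70.4%, 25 reads), 39981839 (66.2%, 59 reads) and 39983149 (59.4%, 80 reads), all on the minus strand. The lowest were at 39982679 on the minus strand (0.256%, 809.5 reads), 39985399 on the plus strand (0.554%, 1363.5 reads) and 39982640 (1.08%). CpG 39985399 is the last CpG of its read window, and the other 9 members of that window were at up to 23.9%. The most covered member, 39985397 on the minus strand, was at 17.1% with 2831.5 reads. The least covered of those compared, 39980081 on the plus strand, was at 15.4% with 20.5 reads. The largest step between neighbours, 61.4 percentage points over 5 bp, was between 39981839 and the fragment-end cytosine 39981844. The member nearest to an annotated start, 39985744, lay 28 bp inside AY036118 as counted from its start on the minus strand, and was at 24.3% with 541 reads.

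The group means had alike profiles along the segment, while single mice differed more. Over the 296 members with more than 1000 reads, the mean profiles of the 4 groups correlated with each other at 0.984 to 0.992, and single mice in pairs at 0.659 to 0.970. Over the 399 members covered in all mice these were 0.966 to 0.992 and 0.488 to 0.977. These are correlations across CpGs that share reads and sequence, given as a description. In the 367 members from 10% to 40%, the median SD between mice of a group was 3.65 percentage points, while sampling of the reads gives 1.04. Reads need not be separate molecules, so that sampling value covers counting error only. Members on different read windows rose and fell together across the mice once the mean of each diet group was subtracted. The median Pearson correlation was 0.79 over such pairs of the 399 members covered in all 40 mice and 0.85 over those of the 296. The 5th percentile over the pairs of the 399 was 0.16. After the same subtraction, the windows at 40% or more correlated with the segment mean at 0.37 to 0.80 and the window below 10% at 0.27. The windows in between gave 0.23 to 0.98, with a median of 0.93. They hold 360 of the 404 members in windows, so the segment mean is mostly their own. The part of coverage in these correlations was not tested. Since members varied together, a count of members is not a count of independent sites.

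**Figure D2:**
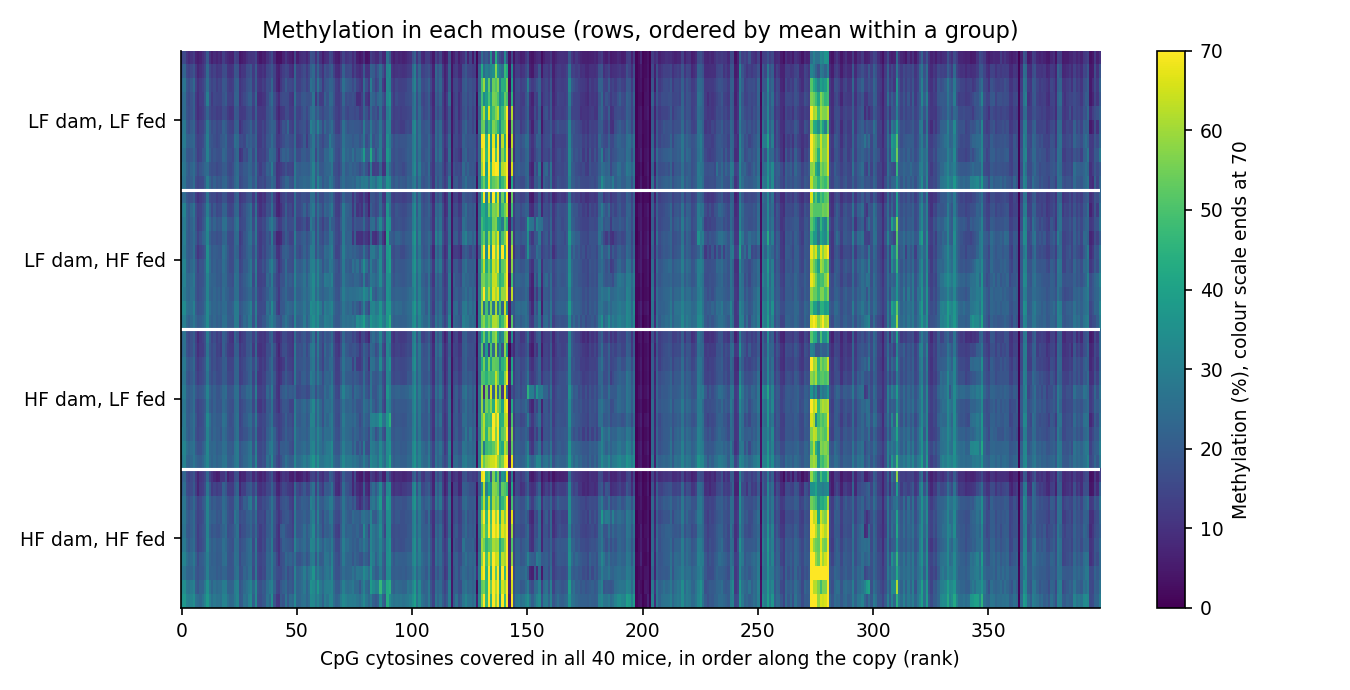
Methylation (colour, percent, with values above 70% at the top colour) of the 399 members covered in all 40 mice, in order along the copy, with 1 row per mouse ordered by its mean within each diet group. Whole rows are darker or lighter from end to end, such as the top row (9.93% on average), while columns keep their rank, with bright blocks at the windows of 40% or more and a dark block at the window of 3.26%.

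Segment methylation was taken per mouse as the mean over the 399 members covered in all mice, each with equal weight. It was 9.93% to 22.3% in LF/LF mice (median 18.2%), 17.2% to 25.5% in LF/HF (median 21.98%), 16.5% to 26.2% in HF/LF (median 21.8%) and 13.0% to 27.7% in HF/HF (median 22.1%). LF/LF held the lowest mouse and the lowest median, and every group overlapped with each of the others. The means were 18.1% ± 3.79 (SD, n = 10), 21.9% ± 2.46, 21.1% ± 3.0 and 21.8% ± 4.37 in the same order. The 3 groups with an HF diet of the dam, of the offspring or of both thus lay within 0.756 percentage points of each other, well inside their SDs. LF/LF lay 3.04 to 3.80 points below them, about the size of 1 SD between mice. Mean methylation over the CpGs outside that were covered in all mice was 39.5% to 39.9% in the 4 groups.

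**Figure D3:**
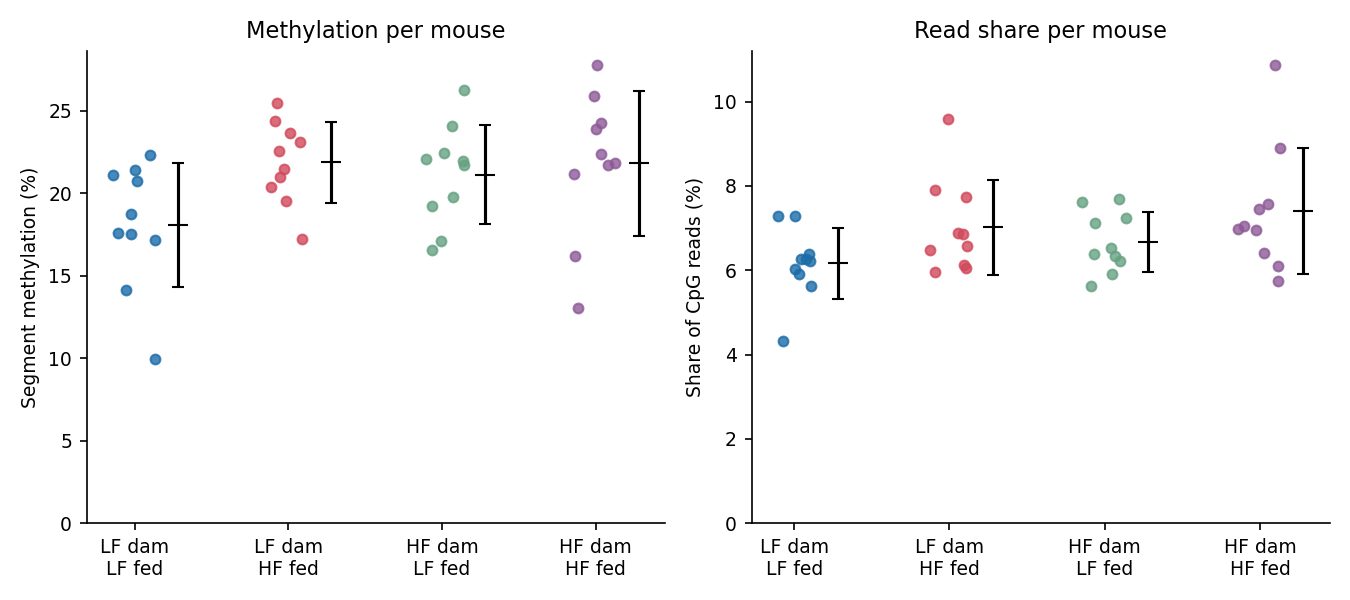
Segment methylation (left, percent) and the segment's share of all CpG reads (right, percent) of each of the 40 mice by diet group, with the mean and SD of each group of 10 as a bar beside the points. LF/LF has the lowest mean in both panels (18.1% methylation and 6.16% of reads), and the points of all groups overlap.

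The segment took a large share of each library. Its CpGs held 4.32% to 7.29% of all reads at listed CpGs in LF/LF mice (median 6.24%), 5.95% to 9.60% in LF/HF (median 6.72%), 5.63% to 7.68% in HF/LF (median 6.46%) and 5.75% to 10.9% in HF/HF (median 7.01%). The groups overlapped, and the highest shares were in HF/HF and LF/HF mice. The means were 6.16% ± 0.842, 7.01% ± 1.13, 6.67% ± 0.713 and 7.40% ± 1.502 (SD, n = 10 each). Total reads at listed CpGs were 2969907 to 23345592 per mouse, of which 268003 to 1737341 fell in the segment. A read that covers several CpGs is counted at each of them in both totals. The ratio of a mouse's median reads per member to its median reads per tested CpG outside was 29.7 to 90.7.

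The share did not pass the test in any of the 3 comparisons made (permutation test of the difference in means, two-sided, 100000 resamples, Benjamini-Hochberg adjusted over the 3). Among animals born from LF fed dams, it was 0.853 percentage points higher in those fed HF (p = 0.0656, adjusted p = 0.197), and without mouse 209 of LF/HF by 0.566 points. Among animals born from HF fed dams, it was 0.738 points higher in those fed HF (p = 0.184, adjusted p = 0.277), and without mouse 182 by 0.352 points. Among animals fed HF, it was 0.391 points higher in those born from HF fed dams (p = 0.531, adjusted p = 0.531), and without mouse 182 of HF/HF, the highest share of all, by 0.00476 points. Between animals fed LF, the share was 0.506 points higher in those born from HF fed dams, a value given with no test.

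Mice with a high share tended to have high methylation of the segment. Over the 40 mice Pearson's r was 0.57 and Spearman's rho 0.47, and without the 2 mice farthest from the median share 0.52 and 0.39. Within groups r was 0.85 in LF/LF, 0.56 in LF/HF, 0.29 in HF/LF and 0.42 in HF/HF. Without the 2 farthest mice of each group it was 0.63 in LF/LF, 0.24 in LF/HF, 0.52 in HF/LF and -0.26 in HF/HF. Both measures come from the same reads and no p is given. The mouse with the lowest methylation, number 100 of LF/LF at 9.93%, also had the lowest share, 4.32%, and the lowest depth ratio, 29.7. Its total of 7526488 reads and its mean methylation outside the segment, 39.8%, lay within those of the other mice.

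Over all 40 mice, both measures tended to be lower in deeper libraries. Segment methylation correlated with total reads at r = -0.52 and rho = -0.41, with r from -0.45 to -0.80 within the groups, and at r = -0.34 without the 2 deepest libraries. Without the 2 mice of a group farthest from its median depth, r in LF/HF went from -0.68 to -0.21 (rho 0) and in HF/HF from -0.80 to -0.42 (rho -0.05). In LF/LF it went from -0.51 to -0.43 (rho -0.55) and in HF/LF from -0.45 to -0.66 (rho -0.62). The 2 deepest libraries were mouse 122 of HF/HF, with 23345592 reads and 13.0% methylation, and mouse 101 of LF/LF, with 17717689 reads and 14.1%. The read share and total reads gave r = -0.36 and rho = -0.38, r = -0.49 without the same 2 mice, and a rho of -0.35 to -0.54 within the groups. The total is the denominator of the share, so no p-value is given for this relation, and the part of depth in either measure was not tested. Segment methylation and mean methylation outside gave r = 0.06 over all mice and -0.23 without 2 mice. Within groups r ran from -0.45 in LF/LF to 0.35 in HF/HF, and the latter turned to -0.79 without 2 mice.

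**Figure D4:**
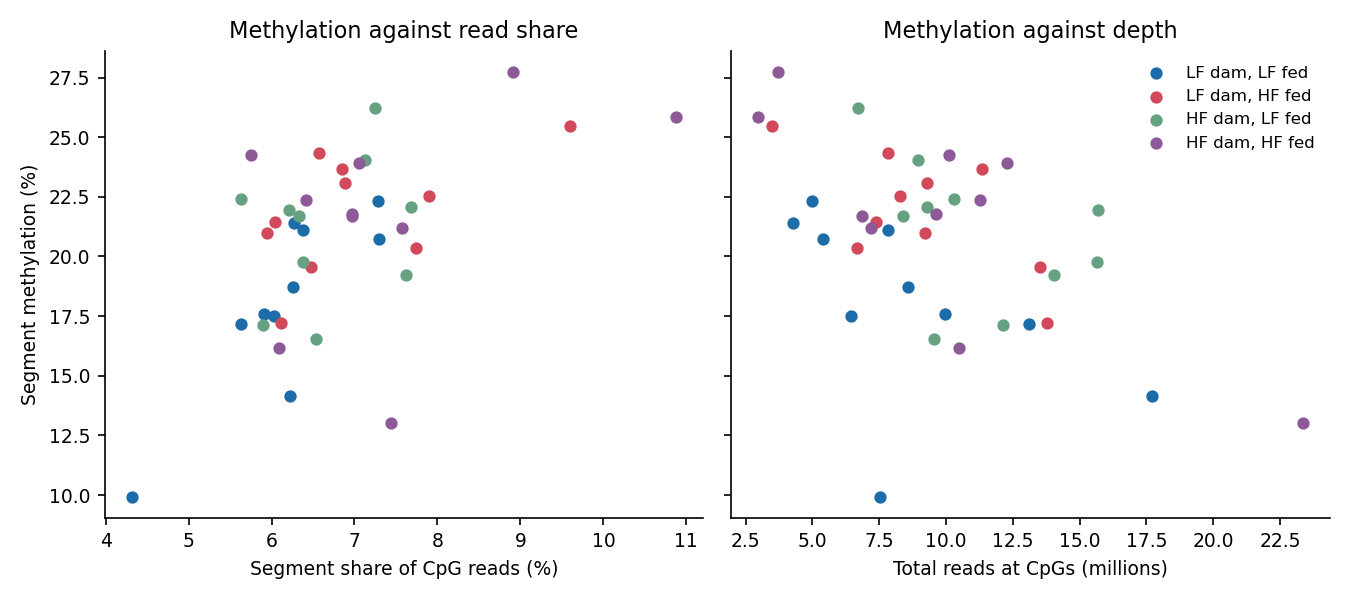
Segment methylation (vertical axis, percent) of each of the 40 mice against the segment's share of CpG reads (left, percent) and against total reads at listed CpGs (right, in units given on the axis), coloured by diet group. Mouse 100 of LF/LF lies at the lower left of the left panel (4.32%, 9.93%), and the deepest library, mouse 122 of HF/HF, at the lower right of the right panel.

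The maternal diet comparison in animals fed HF used 20 mice whose methylation did not enter the p-values that singled out the segment, although their reads are part of its high coverage. The difference in segment methylation, HF/HF minus LF/HF, was -0.0668 percentage points (pooled SD 3.55), and the standard error of this difference was 1.59. In the t-test of single CpGs over the whole table, 5 of the 417 members were higher and 1 lower in animals born from HF fed dams at an unadjusted p below 0.05 (1.44% of members). Over all 239809 CpGs tested in this comparison 3.72% passed that limit. No member passed an FDR of 5% (smallest 0.822), nor did any CpG of the table. Differences at the members had a median of -0.34 points, and the median over all CpGs tested was 0. In the 296 members with more than 1000 reads the differences ran from -2.59 to 1.49 points and none had p below 0.05.

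All 5 members that were higher had few reads. They were 39980081 and 39980106 on the plus strand, at 20.5 and 21.5 reads, and 39982178, 39982182 and 39981798 on the minus strand, at 24 to 68.5 reads. The largest difference in this comparison, 16.5 points, was at 39982178, followed by 14.4 points at 39981798 and 13.8 points at 39982182. CpG 39982178 was 30.9% to 100% (median 55.0%) in HF/HF and 24.4% to 50% (median 41.4%) in LF/HF, so the groups overlapped. The member that was lower was 39985744, at 13.2% to 29.6% (median 23.9%) in HF/HF and 21.2% to 32.0% (median 27.6%) in LF/HF, a difference of -3.74 points (p = 0.0492, FDR 0.822).

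The maternal diet comparison in animals fed LF chose the segment and its values are a description. Segment methylation was 3.04 percentage points higher in HF/LF than in LF/LF mice (pooled SD 3.42). Of the 417 members 396 had a higher mean in HF/LF, with a median difference of 3.26 points. The largest differences were 16.9 points at 39983222 and 39983242 and 15.7 points at 39983219, on the plus strand at 33 to 36 reads. CpG 39983222 was 20% to 59.1% (median 47.1%, 9 mice) in LF/LF and 41.7% to 81.5% (median 58.8%) in HF/LF. Without mouse 100 the difference in segment methylation was 2.14 points.

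The comparison of post-weaning diet in animals born from LF fed dams shares the LF/LF mice with the comparison that chose the segment, so a low level in those mice enters both. The count of members and the p-values here are thus not free of that choice and are no separate test of the diet. Segment methylation was 3.80 percentage points higher in LF/HF than in LF/LF (pooled SD 3.19, standard error 1.43), and 9 of 10 LF/HF mice were above the median of LF/LF. The t-test gave 282 of 417 members (67.6%) higher in animals fed HF and 0 lower at an unadjusted p below 0.05. Over all 238168 CpGs tested, 4.03% passed that limit and 2.22% were higher by it. Of 504 other CpGs with 30 reads or more in at least 36 mice, 15.1% were higher by that limit and 1.98% lower. No member passed an FDR of 5% (smallest 0.808), while 2 CpGs elsewhere did (0.00084% of those tested). The members called lay in 57 of the read windows and 261 of them had more than 1000 reads.

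The smallest p-values were at 3 members with high coverage. CpG 39982040 on the plus strand was 10.03% to 16.8% (median 14.2%) in LF/LF and 13.2% to 22.1% (median 18.9%) in LF/HF, a difference of 4.33 points (p = 0.000517, FDR 0.808). The LF/HF values were higher in the main but overlapped with LF/LF. CpG 39983624 on the plus strand was 5.74% to 15.1% (median 12.4%) and 11.8% to 19.0% (median 16.8%), a difference of 4.69 points (p = 0.000541, FDR 0.808). CpG 39980257 on the minus strand was 14.0% to 24.9% (median 22.3%) and 21.6% to 29.9% (median 27.8%), a difference of 5.36 points (p = 0.000658, FDR 0.808). In HF/LF and HF/HF mice the medians of CpG 39982040 were 17.8% and 18.2%, those of 39983624 were 15.6% and 17.5%, and those of 39980257 were 25.7% and 27.4%. No member separated the groups without overlap, here or in the other comparisons. The largest differences were at 39983242, 39983222 and 39983219, at 10.7, 9.69 and 9.56 points (t-test p = 0.0233, 0.118 and 0.0987, FDR 0.808 each). All of these lay in 1 read window on the plus strand, at 33 to 36 reads.

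The count depended on how the variance of a CpG was estimated. With limma, run on the log2 ratio of methylated over unmethylated reads, 18 members (4.32%) had p below 0.05. A t-test on the same log2 ratios with no moderation gave 276 (66.2%). The share over all CpGs was not counted for either method. By the t-test on percent methylation it was 4.03%. Moderation draws the variance of each CpG toward that of all CpGs in the table, most of which have far fewer reads. Leaving out mouse 100 moved the difference in segment methylation to 2.90 points, the smallest of the 20 values without 1 mouse each.

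The comparison of post-weaning diet in animals born from HF fed dams shares the HF/LF mice with the one that chose the segment, so its p-values are not free of that choice either. Segment methylation was 0.689 percentage points higher in HF/HF than in HF/LF (pooled SD 3.75, standard error 1.68), less than the spread between mice. The t-test gave 10 members higher and 1 lower at an unadjusted p below 0.05 (2.64%), beside 4.06% of all 242393 CpGs tested. No member passed an FDR of 5% (smallest 0.820), and 3 CpGs elsewhere did (0.00124% of those tested). In the 296 members with more than 1000 reads the median difference was 0.27 points, from -1.67 to 2.20. Whether the effect of post-weaning diet differed between animals born from LF and HF fed dams was not tested, since each of these comparisons shares mice with the one that chose the segment.

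Of these 11 members, 1 was the fragment-end cytosine 39981759 and the other 10 were 37.2% to 66.2% methylated with a median of 30 to 162 reads. The largest differences and the smallest p-values were at the same 3 members on the minus strand, 39981798, 39981836 and 39981805, at 28.6, 21.4 and 19.2 points (p = 0.000905, 0.00192 and 0.0130, FDR 0.820 each). The strands differed in direction here. The 1 lower member, 39981838 on the plus strand, was at -7.26 points (t-test p = 0.0458). Its minus strand partner 39981839 was at 14.8 points (p = 0.0307). The plus strand window chr17:39981797-39981846 (164.25 reads) had means of 52.4% in HF/LF and 48.5% in HF/HF. The minus strand window chr17:39981796-39981845 (58.5 reads) had 48.4% and 65.7%. CpG 39981798 was 8.33% to 61.9% (median 51.4%) in HF/LF and 56.0% to 90.2% (median 68.1%) in HF/HF. Its values in LF/LF, 16.98% to 89.0% (median 57.2%), and in LF/HF, 25.6% to 75% (median 56.9%), spanned most of both. It had the largest SD between mice of a group of all members compared, 18.5 points, at 68.5 reads.

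The read windows at 40% or more are given apart from the rest. Over the 20 members of these windows covered in all mice, the level was 25.7% to 58.6% in LF/LF (median 50.2%), 41.6% to 59.3% in LF/HF (median 52.5%), 30.4% to 59.1% in HF/LF (median 52.4%) and 40.02% to 68.9% in HF/HF (median 61.8%). LF/LF had the lowest median and HF/HF the highest over these 20 members, and all groups overlapped. The order of the means in LF/LF, LF/HF, HF/LF and HF/HF differed by window. On the plus strand chr17:39981797-39981846 had 43.3%, 47.6%, 52.4% and 48.5%. On the minus strand chr17:39981796-39981845 had 53.0%, 55.8%, 48.4% and 65.7%, and chr17:39983135-39983184 had 47.6%, 51.4%, 48.4% and 58.6%. All 20 members lay in these windows only. The members outside the windows at 40% or more had medians of 16.6%, 20.2%, 20.2% and 20.1%, with LF/LF lowest and the other groups within 0.147 points of each other.

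**Figure D5:**
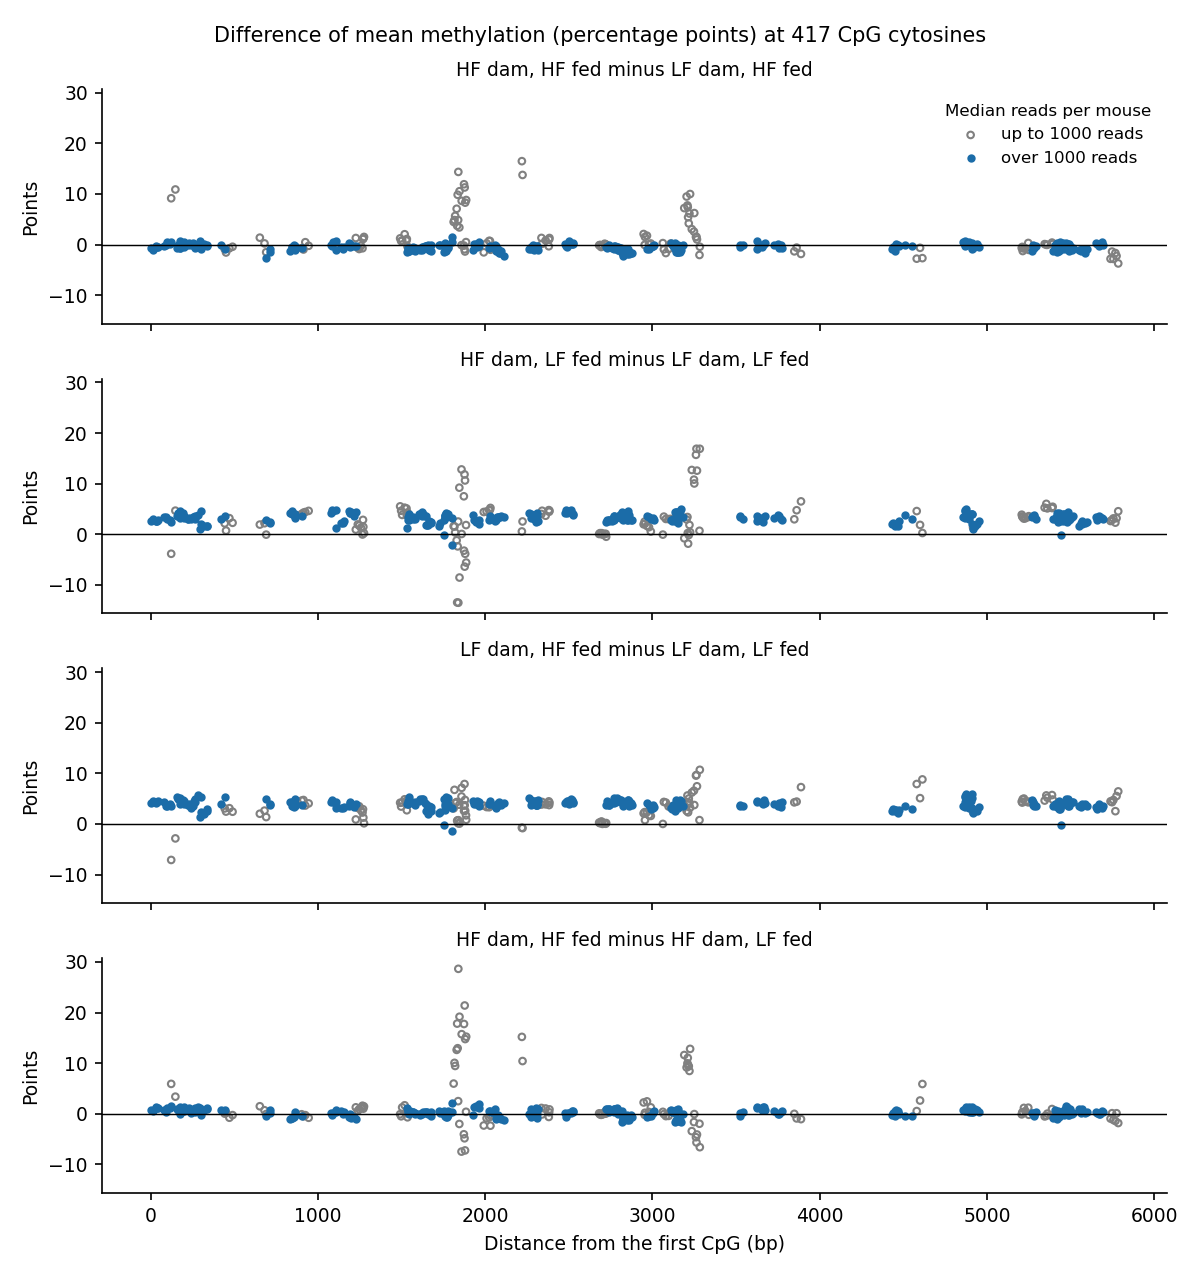
Difference of group means (vertical axis, percentage points) at the 417 members by distance in bp from the first member, 1 panel per comparison, with filled points for members with more than 1000 reads and open points for the others. In both comparisons with LF/LF mice 293 of the 296 filled points are above 0, with medians of 3.33 and 4.01 points, and in the other 2 panels the medians are -0.43 and 0.27, while the widest differences are at open points.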

How the data were processed

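RRBS values of 40 livers were used. The authors cut DNA with MspI, selected fragments of 150-600 bp, converted them with bisulfite and aligned single-end reads with Bismark to mm9, as the submitters' processing notes name them. The table the authors deposited gives each cytosine's methylated count and total count in every mouse, with the fraction of both, and lists no total under 10 reads. No value was normalized, and 0 columns belonged to no mapped mouse. Percent methylation was recomputed from the deposited counts.

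Two-sided Student's t-tests (10 against 10 mice, scipy) were run on the 262317 CpGs with 10 reads or more in at least 36 mice and adjusted by Benjamini-Hochberg over the CpGs that varied. The same CpGs entered limma 3.58.1. The other tests and settings for the counts below were run on the members only. Sequences and MspI sites came from NCBIM37 (mm9). Tests were checked on simulated data. Named CpGs were the extremes of methylation, coverage, SD and step, and in each comparison the 3 largest differences and 3 smallest p-values. The members, lists and tests were chosen with earlier results of these data known.

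Total reads at CpGs were 2969907 to 23345592 per mouse. At 20% methylation and the median coverage of a member, the 95% Wilson interval is 18.0% to 22.1%, for counting error only.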

Additional observations from a re-analysis of the deposited data

Results flagged for a closer look

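The share of reads of mouse 209, born from an LF fed dam and fed HF, was 9.60% of its CpG reads, and the next highest of its group had 7.89%. The gap to that mouse was 0.467 of the range of the group, just past Dixon's critical value of 0.466 for 10 values. It was the 1 mouse found among 16 sets of 10 values. Chance gives such a mouse in about 1 in 20 sets, so 1 find among 16 is close to what chance gives.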

How the results depend on the processing

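Counts of members at an unadjusted p below 0.05 moved with the test and the coverage, and the cause was not tested except for limma, as given above. For maternal diet in animals fed HF, the 6 members became 3 by the exact Wilcoxon test, 11 by the quasi-binomial model, 2 at 20 reads, 1 at 30 reads and 2 among members covered in all 40 mice, and 3 (without mouse 200) to 14 (without mouse 183) when 1 mouse was left out. For post-weaning diet in animals born from LF fed dams, the 282 became 18 by limma, 233 to 321 under the other settings, and 231 to 322 when 1 mouse was left out. The 233 were 69.1% of the 337 CpGs with both strands summed, beside 67.6% for the 282 of 417. For post-weaning diet in offspring of HF fed dams, the 11 became 4 at 20 reads, 3 at 30 reads and 4 with both strands summed, and 5 to 16 when 1 mouse was left out, with 5 without mouse 181, 6 without 123 or 108 and 7 without 54 or 109.

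Segment methylation stayed within 1 SD of its value under 9 alternatives in each comparison (other weights, members and scales, and mean methylation outside or log10 total reads as a covariate). It changed sign with the outside mean as a covariate for maternal diet in animals fed HF (0.720 points), and with total reads as a covariate for post-weaning diet in animals born from HF fed dams (-0.625 points). The rise between LF/LF and LF/HF was 3.82 to 4.17 points, and 2.90 to 4.32 when 1 mouse was left out, and that between LF/LF and HF/LF 3.07 to 4.56, and 2.14 to 3.55. Leaving out 1 mouse moved the difference of maternal diet under HF feeding to between -0.727 and 0.910 points, and that of post-weaning diet in offspring of HF fed dams to between 0.0293 and 1.67. The read share kept its direction and missed the threshold under 3 alternatives and without any 1 mouse. Over the CpGs covered in all mice, where the share itself is larger, its difference between LF/HF and LF/LF was 2.99 points (adjusted p = 0.0862), that between HF/HF and HF/LF 0.170 and that between HF/HF and LF/HF 0.459. For LF/HF against LF/LF, over all alternatives and mice left out, the adjusted p was 0.0862 to 0.277.

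Leaving out mice, the fragment-end cytosines or members under 1000 reads, and the t-test on log2 ratios, were chosen after seeing the data. No paired analysis was possible because the labels give no replicate number or litter that the groups share. At the 121 compared members with 1000 reads or fewer, the reads limit each value. The reads of different repeats could not be separated, and no value here says which repeats were methylated.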
